A study of Drosophila melanogaster with 6 samples.

Results

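Messenger RNA of the Drosophila genes Cenp-C, Spc105R, aurB and cmet, which act at the kinetochore in mitosis, was lower after RNAi against HP1a than after control RNAi against GFP. The 4 genes were chosen by name from the authors' deposited table for HP1a RNAi, with earlier results known. Their presence among its 535 features, genes or repeat consensus sequences, was therefore fixed in advance. None of the 4 was among the 90 features of the table for dKDM4A RNAi. Both tables contained only features with an adjusted p below 0.05. The samples were S2 cells, an embryo-derived Drosophila line with properties of haemocytes, which are insect blood cells. The labels name no genetic change in these cells, which received double-stranded RNA with the transfection reagent DOTAP for 5 days. The control group received double-stranded RNA against GFP, and the other groups received it against HP1a or dKDM4A. Each of the 3 groups had 2 libraries of polyadenylated RNA. Nothing in the labels says that the 2 libraries of a group were separate cultures, and the p-values may therefore reflect technical spread alone.

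The kinetochore is the protein assembly on the centromere that holds a chromosome to the spindle microtubules. An inner layer on centromeric chromatin carries an outer layer that contacts the microtubules, and the Aurora B kinase releases faulty contacts. HP1a binds histone H3 that carries the methyl marks of heterochromatin, the packed chromatin that in flies surrounds the centromeres.

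The HP1a gene (FBgn0003607) was lower in the libraries of its own RNAi. Its normalized counts were 21963 and 25507 in GFP RNAi and 12834 and 15705 in HP1a RNAi. The mean normalized count in HP1a RNAi was 60.1% of the control mean, which does not give the level of HP1a protein. Size factors of the libraries ranged from 0.717 to 1.24 in this table, and the total depth is unknown because only listed features were analysed here. A normalized count is the number of reads of a feature divided by the size factor of its library.

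Cenp-C encodes an inner kinetochore protein that binds centromeric nucleosomes and anchors the outer layer. The gene (FBgn0086697) lies on chromosome 3R from 8564105 to 8569248, plus strand. Its normalized counts were 6655 and 6466 in GFP RNAi and 5389 and 5056 in HP1a RNAi. Both HP1a RNAi libraries were below both controls, with a gap 3.24 times the wider of the ranges within a group. Cenp-C fell 1.26-fold, from 6560 ± 134 to 5222 ± 235 (SD, n = 2 each). The authors' deposited table gives a log2 fold change of -0.32 (SE 0.0802, adjusted p = 0.0018).

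Spc105R encodes the fly KNL1 protein, an outer kinetochore scaffold on which spindle checkpoint proteins gather. The gene (FBgn0037025) lies on chromosome 3L from 20800410 to 20806853, plus strand. Its normalized counts were 7664 and 7919 in GFP RNAi and 6299 and 5965 in HP1a RNAi. The groups did not overlap, and the gap between them was 4.08 times the wider range within a group. Spc105R fell 1.27-fold, from 7792 ± 180 to 6132 ± 236 (SD, n = 2 each). In the authors' deposited table its log2 fold change was -0.34 (SE 0.0774, adjusted p = 0.000458).

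aurB encodes Aurora B, the kinase of the chromosomal passenger complex, which corrects attachments and acts again in cytokinesis. The gene (FBgn0024227) lies on chromosome 2L from 10856797 to 10858094, minus strand. Its normalized counts were 3521 and 3625 in GFP RNAi and 2627 and 2820 in HP1a RNAi. The controls lay close together, the HP1a RNAi libraries lay further apart, and the groups did not overlap. aurB fell 1.31-fold, from 3573 ± 73.5 to 2724 ± 137 (SD, n = 2 each), which left 76.2% of the control mean. This was the largest fold among the 4 genes, and the authors' deposited table gives a log2 fold change of -0.38 (SE 0.0859, adjusted p = 0.000329).

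cmet encodes CENP-meta, a kinesin motor related to CENP-E that brings chromosomes to the spindle equator. The gene (FBgn0040232) lies on chromosome 2L from 11261026 to 11269002, minus strand. Its normalized counts were 16771 and 16505 in GFP RNAi and 14474 and 13875 in HP1a RNAi. The groups did not overlap, although the fold was the smallest of the 4. cmet fell 1.17-fold, from 16638 ± 188 to 14174 ± 423 (SD, n = 2 each). The authors' deposited table gives a log2 fold change of -0.23 (SE 0.0693, adjusted p = 0.0197). Its relative cana lies 778 bp away and was not listed. The sources used here do not say how reads matching both genes were assigned.

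**Figure D1:**
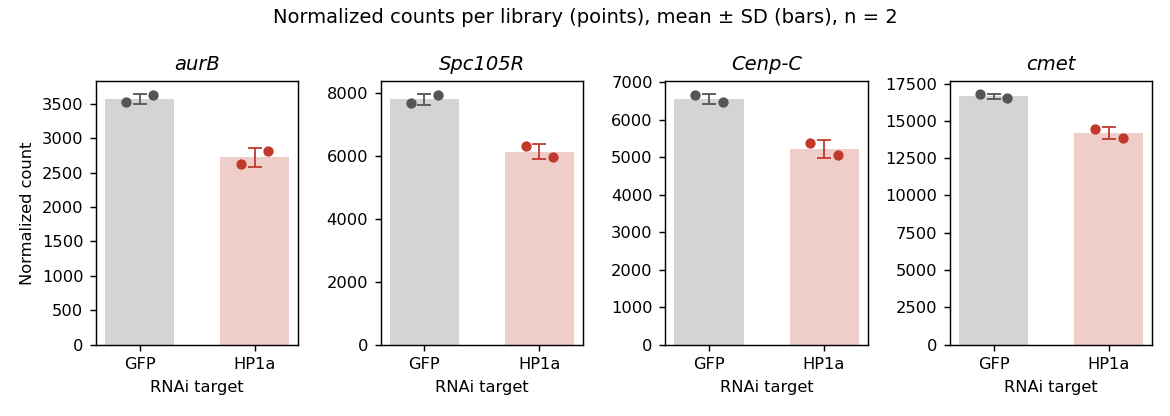
Normalized counts (vertical axes, starting at 0) of aurB, Spc105R, Cenp-C and cmet in S2 cells after RNAi against GFP or HP1a. Points are libraries, and bars with error bars are the mean ± SD of 2 libraries; in each panel both HP1a RNAi libraries lie below both controls, by 1.17-fold to 1.31-fold on average.

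In all 4 genes both HP1a RNAi libraries lay below both GFP RNAi libraries, as they did in all 189 features listed as lower. These 189 made up 35.3% of the 535 listed features, so the lack of overlap does not set the 4 genes apart. Of the 8287 features that the authors tested, 2.28% were listed as lower and 4.18% as higher. The genes had been picked with earlier results of these data known, so their count has no weight as evidence against that background. RNA was taken from whole cultures, so fewer cells in mitosis and less of these transcripts per cell cannot be told apart.

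Limma on log2(normalized count + 1), with p-values adjusted by Benjamini-Hochberg over the 535 rows, gave intervals for the 4 genes. The log2 difference of aurB was -0.39 (95% interval -0.63 to -0.16, limma adjusted p = 0.0151). For Spc105R it was -0.35 (-0.58 to -0.12, limma adjusted p = 0.0186). For Cenp-C it was -0.33 (-0.56 to -0.096, limma adjusted p = 0.0217). The interval of cmet reached closest to 0, with a log2 difference of -0.23 (-0.45 to -0.0079, limma adjusted p = 0.0463). Limma called 98.1% of the listed rows, 34.2% of them all as lower, and the same libraries had served to select those rows. A call of the 4 genes was therefore likely beforehand and adds no support. The intervals rest on a spread estimated from the same selected rows, so they may be too narrow. With 2 libraries against 2, the smallest p of an exact permutation test is 0.33.

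Most of these limma calls needed all 4 libraries. The standard errors of the 4 genes were 0.0846 to 0.0896 with all libraries and 0.126 to 0.131 with 1 left out, whichever it was. Without any 1 of the 4 libraries, Spc105R, Cenp-C and cmet missed an adjusted p of 0.05 in limma. In each of these fits calls were also lost across the listed rows, so the loss does not set these genes apart. aurB passed without GFP RNAi replicate 1 (limma adjusted p = 0.0418) and without HP1a RNAi replicate 2 (limma adjusted p = 0.0439). It missed without GFP RNAi replicate 2 (limma adjusted p = 0.0539) and without HP1a RNAi replicate 1 (limma adjusted p = 0.0708). The log2 difference ranged from -0.44 to -0.34 for aurB and from -0.26 to -0.20 for cmet, and its sign could not change because the groups did not overlap.

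**Figure D2:**
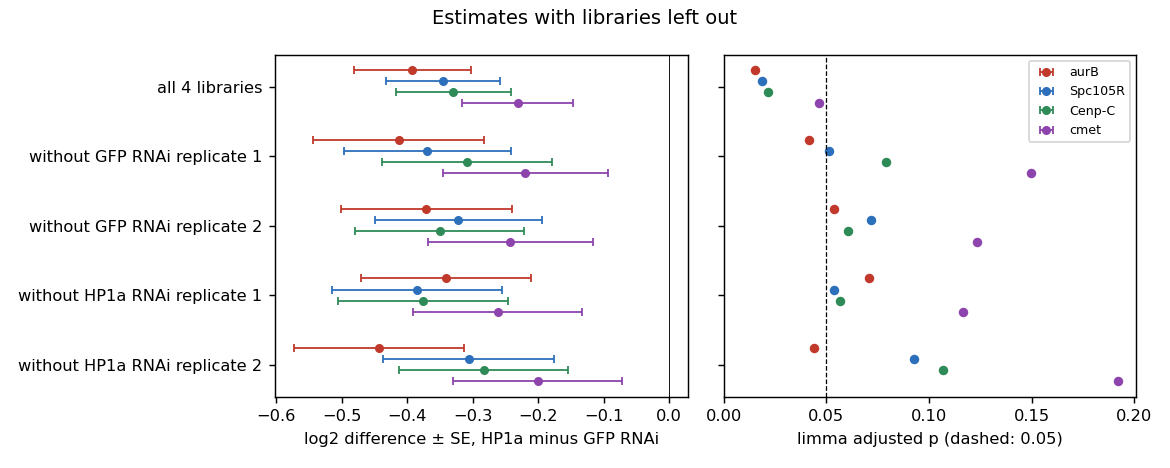
Limma estimates for aurB, Spc105R, Cenp-C and cmet from all libraries and from fits that each leave out 1 library. The left panel shows the log2 difference ± SE (HP1a minus GFP RNAi) and the right panel the adjusted p, with 0.05 dashed; the error bars widen by a like amount whichever library is left out, and cmet has the highest adjusted p, up to 0.192.

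The counting error of these genes was small, because they were covered by 2601 to 17945 reads per library. The GFP RNAi libraries differed by 2.91% for aurB, where counting alone gives a standard error of 2.55%. The HP1a RNAi libraries differed by 7.10% for aurB, against a counting error of 2.54%. For Spc105R, Cenp-C and cmet the HP1a RNAi libraries differed by 5.45%, 6.37% and 4.22%, against counting errors between 1.11% and 1.84%. In each of the 4 genes the HP1a RNAi libraries thus differed by more than the controls did. Of the other listed mitosis genes described below, pav and msd5 showed the same. In Kmn1, Mis12, mad2, mars and spd-2 the controls differed by more. The share over all listed features was not computed. Between the 2 HP1a RNAi libraries the direction was not shared by the 4 genes. HP1a RNAi replicate 1 had the lower value for aurB and the higher value for Spc105R, Cenp-C and cmet.

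Levels were compared between genes only per kilobase of annotated exon. In GFP RNAi aurB was highest at 3020 ± 62.2 normalized counts per kb (SD, n = 2). cmet followed at 2374 ± 26.9, Cenp-C at 1401 ± 28.6 and Spc105R at 1258 ± 29.1. The order was the same in HP1a RNAi, with 2302 ± 116 for aurB, 2023 ± 60.4 for cmet, 1115 ± 50.2 for Cenp-C and 990 ± 38.1 for Spc105R. Neighbours in this order did not overlap between libraries in either group. The level of aurB was 1.27 times that of cmet in the controls and 1.14 times in HP1a RNAi. The exons counted were the union over all annotated transcripts, of which aurB has 1, Spc105R 2, Cenp-C 2 and cmet 4.

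Whether the genes fell to different extents could not be settled with these libraries. The log2 ratio of aurB to cmet was -2.25 and -2.19 in GFP RNAi and -2.46 and -2.30 in HP1a RNAi, so aurB fell further in these libraries, with a difference of -0.16 (exact permutation test, two-sided, p = 0.33, the smallest possible). Of the 6 pairs among the genes, this was the widest difference. Spc105R and Cenp-C were closest, with a difference of -0.016 in their log2 ratio (exact permutation test, two-sided, p = 1).

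Among the 189 features listed as lower, the 4 genes had changes smaller than the median, and cmet, Spc105R and Cenp-C were among the more abundant. By the size of the change in the authors' deposited table, aurB ranked 117, Spc105R 130, Cenp-C 137 and cmet 183. The median of the 189 in the authors' deposited table was -0.46. By mean normalized count cmet ranked 23, Spc105R 43, Cenp-C 51 and aurB 83. Of the lower features within 2-fold of their mean count, 29 of 54 had a smaller change than Spc105R, 27 of 61 than Cenp-C and 35 of 67 than aurB. Only 3 of 29 had a smaller change than cmet.

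**Figure D3:**
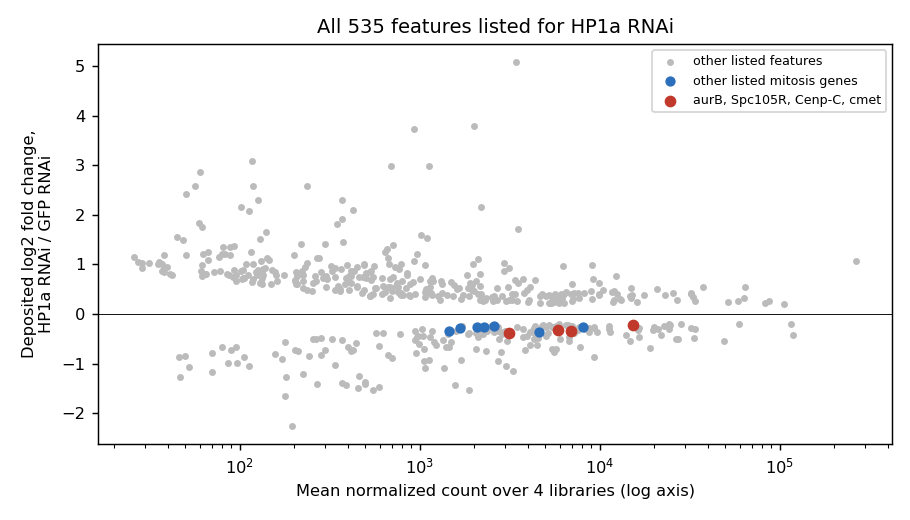
Log2 fold change of the authors' deposited table (vertical axis) against mean normalized count (horizontal log axis) for the 535 features listed for HP1a RNAi. Red points are aurB, Spc105R, Cenp-C and cmet, between -0.38 and -0.23, of which cmet at -0.23 has one of the smallest decreases listed; blue points are the other listed mitosis genes.

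The wider machinery of mitosis was described from 11 lists by role, which together held 111 genes. Of these, 11 were listed for HP1a RNAi, all lower, and 100 were not listed. That is 9.91% of the 111, beside 2.28% of all tested features. Without the 4 genes named at the outset it is 7 of 107, or 6.54%. The lists too were written with earlier results known. A gene that is not listed either did not pass or was not tested, and these cannot be told apart. The 111 may thus hold untested genes, unlike the features behind the 2.28%. The shares were also not matched for expression level. For dKDM4A RNAi 0 of the 111 were listed, beside 1.19% of the features tested there. The 7 listed genes other than the 4 were 1.19-fold to 1.30-fold lower, with adjusted p between 0.00668 (pav) and 0.04996 (spd-2) in the authors' deposited table.

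The outer kinetochore had 3 of 8 members listed. Beside Spc105R these were Mis12 and Kmn1, subunits of the Mis12 complex that joins Cenp-C to the outer layer. Spc105R, Cenp-C, aurB and cmet had been chosen as listed genes, so the counts of their lists were partly fixed in advance. Cenp-C, aurB and cmet were the only listed members of their lists. Each count here and below stands beside 2.28% of all tested features listed as lower, and no single list was tested against that share. Mis12 had normalized counts of 1533 and 1714 in GFP RNAi and 1247 and 1308 in HP1a RNAi, a 1.27-fold decrease. Kmn1 had 2351 and 2213 in GFP RNAi and 1928 and 1853 in HP1a RNAi, a 1.21-fold decrease. The Ndc80 complex genes Ndc80, Nuf2 and Spc25 were not listed, nor were Nnf1a and Nnf1b, which encode further subunits of the Mis12 complex. In the centromere list Cenp-C was the 1 listed gene of 3, while cid, the centromeric histone, and cal1, its loading factor, were not listed.

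The chromosomal passenger complex had aurB alone of 5 members, and the genes of its partners Incenp, borr, Det and aust were not listed. The kinetochore motors and corona had cmet alone of 7, without cana, rod, Zw10, Zwilch, Spindly and nudE. Of the spindle checkpoint mad2 was listed, 1 of 7, and encodes the inhibitor of anaphase that unattached kinetochores produce. mad2 had normalized counts of 2434 and 2534 in GFP RNAi and 2038 and 2098 in HP1a RNAi, a 1.20-fold decrease. The other mitotic kinases and cyclins, among them polo, aurA and CycB, had 0 of 12 members listed. Cohesion genes had 0 of 13, condensin 0 of 7 and the anaphase-promoting complex 0 of 12.

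The spindle list had 3 of 25 members. pav, which encodes a kinesin of the central spindle needed for cytokinesis, had 8989 and 8684 normalized counts in GFP RNAi and 7459 and 7137 in HP1a RNAi, a 1.21-fold decrease. mars, which encodes a spindle-associated protein, had 5549 and 4937 in GFP RNAi and 4212 and 3841 in HP1a RNAi, a 1.30-fold decrease. msd5, which encodes a subunit of the microtubule-nucleating augmin complex, had 1841 and 1837 in GFP RNAi and 1475 and 1545 in HP1a RNAi, a 1.22-fold decrease. The spread between the controls was wide for mars and narrow for msd5. Of 12 centrosome genes spd-2, which helps to recruit pericentriolar material, was listed with 2933 and 2740 in GFP RNAi and 2393 and 2360 in HP1a RNAi, a 1.19-fold decrease.

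Limma over the listed rows gave the 7 genes adjusted p from 0.025 (mars) to 0.0405 (spd-2), and it called 96.8% of all 189 features listed as lower. The gap between the groups was wider than either range within a group in the 11 genes, by the least in mars (1.18 times), and in 87.8% of the 189. Part of the exon sequence of some of them overlaps an annotated gene or transposon copy on the opposite strand. That share was 33.3% for Kmn1, 12% for mars, 11.5% for mad2, 2.38% for msd5 and 0.785% for cmet. The sources used here do not say whether counting used strand, so reads in those stretches cannot be assigned with certainty. aurB, Spc105R and Cenp-C have no such overlap.

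**Figure D4:**
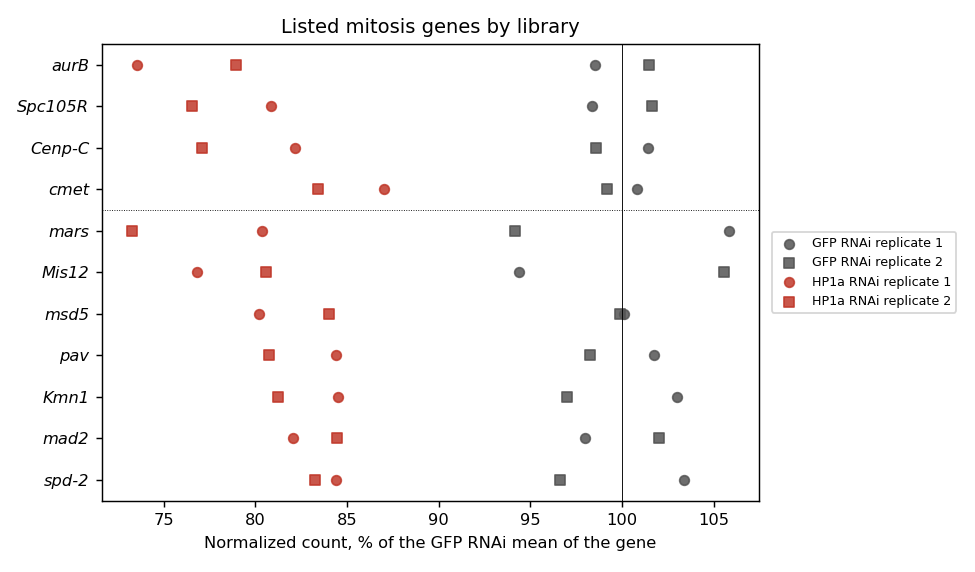
Normalized count of each listed mitosis gene in each library, as a percentage of the GFP RNAi mean of that gene (horizontal axis). Grey marks are GFP RNAi and red marks HP1a RNAi, circles are replicate 1 and squares replicate 2; red marks lie between 73.3% and 87.0% and grey marks between 94.2% and 106%, with aurB, Spc105R, Cenp-C and cmet above the dotted line.

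Among the genes whose log2 values over the 4 libraries most resembled those of each of the 4, those described below had varied functions. No function is given here for CG3303, CG13283, CG11652 and CG8891. Likeness was the Euclidean distance between log2(normalized count + 1) values centred on the gene's own mean, over 4 libraries. For aurB tsh, which encodes the transcription factor Teashirt, and CG3303 were among the 3 nearest listed features, at distances of 0.0735 and 0.0823. For Spc105R they were GlcAT-P, a glucuronyltransferase gene, CG13283 and vap, a Ras GTPase-activating protein gene, at 0.0246, 0.0413 and 0.0472. For Cenp-C they were CG11652, koi, which encodes a SUN-domain protein of the nuclear envelope, and CG8891, at 0.0199, 0.0316 and 0.0418. For cmet they were Nhe3, a sodium-proton exchanger gene, pyr, an FGF ligand gene, and Idgf2, a secreted growth factor gene, at 0.0137, 0.0149 and 0.0241. Among the 4 genes themselves, Spc105R and Cenp-C, at a distance of 0.0655, each ranked 14 among the 534 other features of the other, and cmet ranked 88 from aurB.

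The 4 genes lie on 3 chromosome arms, and the pair on 2L, aurB and cmet, is 403 kb apart. Within 50 kb of aurB, Spc105R and cmet there are 15, 23 and 6 other protein-coding genes, and 0 of them were listed for HP1a RNAi. Of the 9 within 50 kb of Cenp-C, 1 was listed, CG31259, which was higher and lies 37.4 kb away. Of the other 7 genes, Mis12 had listed neighbours CG10063 and tow, both lower, and Kmn1 had Drak, also lower.

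In the dKDM4A table the gene Kdm4A, a histone demethylase gene and the target, was higher in the libraries labelled dKDM4A RNAi, not lower. It had normalized counts of 842 and 843 in GFP RNAi and 2141 and 2675 in those libraries. The reason for this rise was not tested. The absence of aurB, Spc105R, Cenp-C and cmet from that table therefore concerns libraries in which the counts of the target gene were not lower. It does not show that the 4 genes differed between HP1a RNAi and those libraries, and that difference was not tested.

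Markers of haemocytes, which S2 cells resemble, and of the germline moved in the same HP1a RNAi libraries. Of 13 haemocyte markers 3 were listed (Pxn, drpr and lz), all higher, beside 4.18% of all tested features. Their summed normalized count was 199086 and 153178 in GFP RNAi and 423388 and 353489 in HP1a RNAi. Most of it was Pxn, with 186823 and 140994 in GFP RNAi and 406768 and 334266 in HP1a RNAi. Of 8 germline markers 4 were listed, all higher (vas, osk, zpg and aub), beside the same 4.18%. These 4 markers summed to 11041 and 11523 in GFP RNAi and 15350 and 15073 in HP1a RNAi. Most of that sum was aub, with 10450 and 10931 in GFP RNAi and 14418 and 14158 in HP1a RNAi. Of 3 ovarian somatic markers 0 were listed. The labelled cell type could be checked only against listed markers, since Hml, srp and the others were not listed for HP1a RNAi. For dKDM4A RNAi, Pxn and NimC1 were listed as higher and piwi as lower. No marker listed for HP1a RNAi was at 0 in either group of that comparison, but the counts of lz, vas and osk were low. In GFP RNAi they were 15.9 and 12.5 for lz, 21.5 and 19.5 for vas, and 44.0 and 40.4 for osk. Their part in the decrease of the kinetochore genes was not tested.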

How the data were processed

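Polyadenylated RNA of S2 cells was sequenced from 2 libraries per RNAi group. The submitters' processing notes list Bowtie, DESeq2 and TopHat but neither versions nor roles, and no source used here gives the genome build. In the HP1a table, 458 of 461 genes matched by identifier had the positions of the BDGP6 (dm6) annotation. Cenp-C and vas carry identifiers that the annotation no longer holds and were matched by symbol. The signal values are normalized counts, per the file headers: the authors divided the reads of each feature by 1 size factor for the library. This was done on its own for either table. The log2 fold changes, their standard errors, the score (log2 fold change over standard error) and the p-values are the authors' deposited ones. Their Benjamini-Hochberg ranks gave 8287 and 7533 tested features. A row without values (1 per comparison) was left out.

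Each value was a whole number of reads times a constant of its column (100% within 0.1 reads), which gave reads and size factors. Too few low values were at hand for a count test, so none was run. R 4.3.3 with limma 3.58.1 fitted log2(normalized count + 1) of the 4 libraries of the HP1a table, with a minimum mean of 1. The fit was tested on simulated data. Every limma adjusted p was taken from this fit or its alternatives. Folds are ratios of mean normalized counts.

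The genes, lists and tests were chosen with earlier results of these data known. The named genes are the 4, the HP1a gene, every listed gene of the mitosis lists and the 3 features nearest to each of the 4, of which 1 is not reported here. Nsl1, an older name of Kmn1, was counted once. Markers, neighbours and Kdm4A were named beside them after their values were seen. Alternatives were pseudocounts of 0.1 and 5, no filter, a mean of at least 100, the replicate block and each library left out. The listed rows alone allow no other scaling, so directions rest on the authors' size factors. Python 3.11.15, numpy 2.4.6, pandas 2.3.3 and matplotlib 3.10.9 were used.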

Additional observations from a re-analysis of the deposited data

How the results depend on the processing

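Pseudocounts of 0.1 and 5, no filter and a mean of at least 100 changed no limma call of aurB, Spc105R, Cenp-C or cmet, and their log2 differences stayed within the spread between replicates. The log2 differences ranged, with 1 library left out, from -0.44 to -0.34 for aurB, from -0.39 to -0.31 for Spc105R, from -0.38 to -0.28 for Cenp-C and from -0.26 to -0.20 for cmet. Because the groups did not overlap, the sign of these estimates could not change. Limma calls over the listed rows numbered 525 with all libraries (183 lower, 342 higher), from 334 to 383 with 1 library left out, of which 89 to 117 were lower and 245 to 269 higher. A left-out library leaves its group with 1, which is assumed to vary like the other group. A limma fit with the replicate block called 513 rows, and cmet, at an unchanged log2 difference of -0.23, missed the threshold (adjusted p = 0.054). No other call among the 11 genes changed. The labels share only replicate numbers, and deviations of same-numbered libraries correlated at 0.237 across listed features. Depth does not limit the 4 genes, whereas 2 libraries per group limit every p-value here.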
